A study of Mus musculus with 5 samples.

Results

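Pou5f1, Sox2, Sall4, Lin28a, Lin28b, Utf1, Dppa2, Dppa3, Dppa4 and Dppa5a are genes that mark the pluripotent state, and their transcript levels were compared between Trip12 mut/mut and wild-type (WT) mouse embryonic stem cells. They were taken by name: a probe set belonged to a gene if that was its single symbol in the platform annotation, and the brightest probe set, averaged over the 5 arrays, stood for the gene. All 10 genes were found, through 15 of the 45037 probe sets, among 18193 measured genes. The study hybridised total RNA of 3 Trip12 mut/mut and 2 WT samples to Affymetrix arrays, and mutant against WT is the one comparison it allows. Trip12 encodes a HECT-type ubiquitin ligase.

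Trip12 mut/mut cells are homozygous for a mutation that the labels do not describe. Cells of both groups were E14 embryonic stem cells, kept on a feeder layer of mouse embryo fibroblasts. Leukaemia inhibitory factor was present at 100 units/ml, with 14% serum replacement and only 1% fetal bovine serum. RNA was labelled from 6 µg per sample. Each sample is named a biological replicate, but neither the number of clones nor the removal of feeder cells before lysis is stated, so p-values measure the spread between these arrays only, which may be technical.

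Pou5f1 (Oct4), a POU domain factor, and Sox2, an HMG box factor, bind DNA side by side at many genes of embryonic stem cells, their own included, and Sall4 is a zinc finger partner that recruits the NuRD corepressor. Lin28a and Lin28b are RNA-binding proteins that hold back maturation of the let-7 microRNAs, which are low in pluripotent cells and accumulate as cells differentiate. Utf1 is a chromatin protein of embryonic stem cells. The Dppa genes share a name (developmental pluripotency associated), not a family: Dppa2 and Dppa4 are SAP domain proteins that work as a pair, Dppa3 (Stella) is a maternal and germline factor that counters maintenance methylation, and Dppa5a is a KH domain RNA-binding protein.

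The sequences shown here are those that bear on Lin28a and Utf1, which fell when Trip12 mut/mut replicate 1 and dim genes were left out. The let-7 microRNAs, on which the Lin28 proteins act, share a seed (bases 2 to 8, in capitals), and the 9 mature 5p sequences of the family in RefSeq (assembly GRCm38.p6), miR-98 included, hold 1 seed between them.
let-7a-5p: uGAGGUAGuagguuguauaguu
let-7g-5p: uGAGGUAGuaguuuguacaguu
miR-98-5p: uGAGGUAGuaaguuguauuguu
The zinc knuckles of Lin28 are known to bind a GGAG motif in the loop of the let-7 precursor. These letters stood downstream of the 5p arm in 9 of the 12 family hairpins examined (where no 5p sequence was listed, in the later part of the hairpin). Any family hairpin listed on 1 further chromosome was left out of this count. The let-7g hairpin (chr9:106178840-106178927, plus strand) holds the motif, in capitals, and the let-7b hairpin (chr15:85707319-85707403, plus strand) does not.
let-7g hairpin: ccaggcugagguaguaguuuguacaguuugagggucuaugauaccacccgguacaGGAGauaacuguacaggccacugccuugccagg
let-7b hairpin: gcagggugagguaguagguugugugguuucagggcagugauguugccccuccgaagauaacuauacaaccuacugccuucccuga
The arrays carried no measure of mature let-7 that was used here, so these sequences describe the pathway and not a result.

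Promoter sequence was listed for 5 of the 10 genes, Pou5f1, Sox2, Lin28a, Lin28b and Utf1. The 250 bases before the transcription start of Lin28a (chr4:134018817-134019066, minus strand) and of Utf1 (chr7:139943606-139943855, plus strand) are shown from RefSeq (GRCm38.p6). Capitals mark matches to the motifs searched on both strands, namely the octamer core ATGCAAA, the Sox core CATTGT, their composite (a Sox core, any base, then an octamer core) and the GC box GGGCGG.
Lin28a: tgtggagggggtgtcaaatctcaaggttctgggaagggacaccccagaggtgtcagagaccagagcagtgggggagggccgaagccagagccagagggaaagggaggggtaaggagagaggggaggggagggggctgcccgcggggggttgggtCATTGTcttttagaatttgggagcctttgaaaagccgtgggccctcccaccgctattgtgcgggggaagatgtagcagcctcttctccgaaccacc
Utf1: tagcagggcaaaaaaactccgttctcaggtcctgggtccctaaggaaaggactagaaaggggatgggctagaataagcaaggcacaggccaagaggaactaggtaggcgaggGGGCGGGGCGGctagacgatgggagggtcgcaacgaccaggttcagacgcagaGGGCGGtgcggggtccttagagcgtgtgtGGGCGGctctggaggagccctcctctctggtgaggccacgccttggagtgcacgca
The Lin28a window holds 1 Sox core, which starts 96 bases before the transcription start, and 0 octamer cores or GC boxes. The Utf1 window holds 4 GC boxes, of which those at 138 and 133 bases overlap, and 0 octamer or Sox cores. Among 32851 windows of the same length, 10.7% hold a Sox core, 4.12% an octamer core, 32.7% a GC box and 0.00609% the composite, of which the octamer and Sox cores are parts. Of the other windows, that of Sox2 holds 1 octamer core and 2 GC boxes, and the 2 Pou5f1 windows hold 1 GC box and 1 Sox core. The Lin28b window holds none of the 4 motifs. A match is a description of the letters only.

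The array labelled Trip12 mut/mut replicate 1 stood apart from the other mutant arrays. It differed from the WT arrays by more than 2-fold at 0 of 45037 probe sets, as did the WT arrays from each other. Replicates 2 and 3 differed from the WT arrays at 293 to 545 probe sets. Trip12 itself read 10.18, 12.09 and 12.57 on Trip12 mut/mut replicates 1, 2 and 3, against 10.17 and 10.25 on the WT arrays. Its transcript was thus higher, not lower, on replicates 2 and 3, and at the WT level on replicate 1. Of its probe sets, the one at 6.11 and 6.10 on the WT arrays went the other way, at 6.11, 5.69 and 5.24 on the mutant arrays. Since the mutation is not described, these levels cannot check the genotype. Whether replicate 1 carries the right label was not tested, and every mean, SD and difference over 5 arrays counts it as mutant. Results are given over all 5 arrays as labelled, and again without replicate 1. The comparison of 4 arrays used the 11626 genes that reached the median of all probe sets, 5.52, on 2 or more of them. Leaving an array out for its own values makes the p-values of the rest too small, so they do not count as independent support.

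Across all 5 arrays, 0 of the 10 genes passed (limma, Benjamini-Hochberg adjusted p at a threshold of 0.05), as did 0 of 18193 genes, or 0%, and 214 genes had an unadjusted p below 0.05. Of the 10, only Lin28b had an unadjusted p below 0.05 (0.00483). The median difference of the 10 genes, mutant minus WT, was -0.27 on the log2 scale, against 0.02 over all genes. On the array level, 9 of the 10 lay below the WT mean on both replicates 2 and 3, where 28.8% of all genes did. The exception was Dppa5a, which lay above it on both, as 39.4% of all genes did. None of the 10 was higher than WT on every mutant array, where 5.73% of all genes were.

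In the comparison of 4 arrays, 3 of the 9 genes tested fell, namely Dppa3, Lin28a and Utf1, and 0 rose. Over all genes tested there, 1.34% fell and 3.29% rose. All 9 tested genes had each of the 4 arrays above the median of 5.52, and Lin28b was not tested because it lay below. The median difference of the 9 was -0.32, against 0.05 over all genes tested. Without the filter, 0 of 18193 genes passed on these 4 arrays (0%), with 3730 below an unadjusted p of 0.05.

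**Figure D1:**
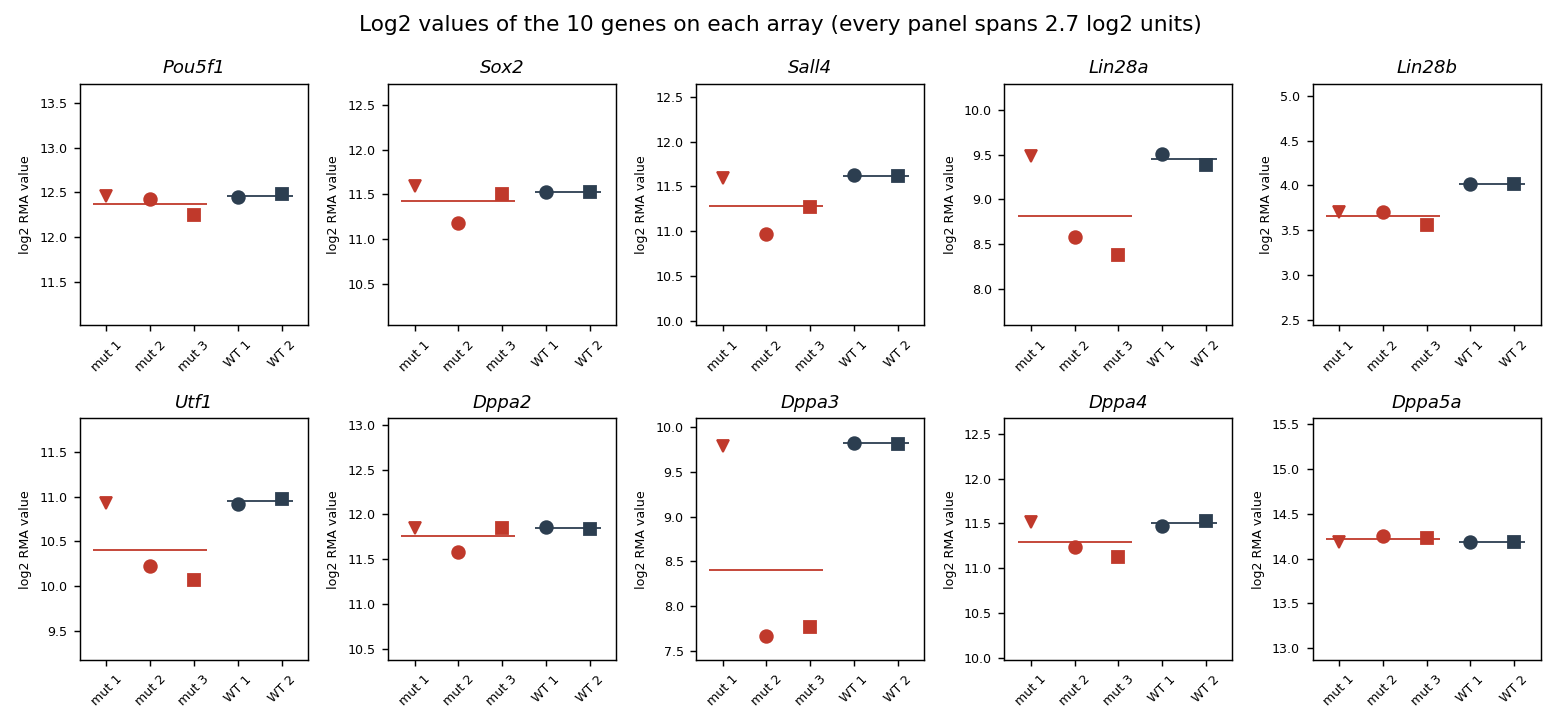
Log2 RMA value (vertical axis) of each of the 10 genes on each array (horizontal axis), with mut 1 to mut 3 for Trip12 mut/mut replicates 1 to 3 (red) and WT 1 and WT 2 for the WT replicates (dark); lines are group means and every panel spans the same range. Dppa3 reads 7.67 and 7.76 on replicates 2 and 3, against 9.82 on each WT array, whereas Pou5f1 and Dppa5a stay within a narrow band.

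Neither Pou5f1 nor Sox2 passed in either comparison. Pou5f1 read 12.46, 12.42 and 12.25 on Trip12 mut/mut replicates 1, 2 and 3, against 12.45 and 12.48 on the WT arrays. Replicate 3 was the lowest of the 5 arrays, and replicate 1 lay between the WT arrays. The means were 12.38 ± 0.11 (SD, n = 3) in mutant and 12.46 ± 0.02 (SD, n = 2) in WT cells, a difference of -0.09 (SE 0.08) whose 95% interval ran from -0.31 to 0.13 (limma, adjusted p = 0.749). Without replicate 1 it was -0.13, with an interval of -0.38 to 0.12 (limma, adjusted p = 0.424).

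Sox2 read 11.59, 11.18 and 11.51 on the mutant arrays, against 11.53 on each WT array. The only array clearly off the WT level was replicate 2, at 0.788-fold of the WT mean, while replicate 3 was at 0.988-fold and replicate 1 was the highest of all. The difference of -0.10 (SE 0.14, 95% interval -0.48 to 0.28) did not pass (limma, adjusted p = 0.788). Its sign turned without replicate 2, to 0.023. Nanog, their partner in the pluripotency network, was likewise lowest on replicate 2, at 11.37, 11.00 and 11.37 on the mutant arrays, against 11.37 and 11.34 on the WT arrays.

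Sall4 was below WT on replicates 2 and 3 by more than its partners. It read 11.60, 10.97 and 11.26 on the mutant arrays, against 11.62 and 11.61 on the WT arrays. The groups did not overlap, which held in the lower direction for 3 of the 10 genes over all 5 arrays (Sall4, Lin28b and Dppa3), and for 6.29% of all genes. Replicate 1, however, was only 0.02 below the WT mean. The difference was -0.34 (SE 0.20, limma adjusted p = 0.748) over 5 arrays. In the comparison of 4 arrays it was -0.50 (SE 0.12), 1.42-fold lower, and also did not pass (limma, adjusted p = 0.0949). A dimmer Sall4 probe set, averaging 7.31 in WT cells, lay at 0.978-fold and 0.892-fold of WT on replicates 2 and 3, against 0.637-fold and 0.782-fold for the brighter, so the size of the gap differed between probe sets.

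Lin28a fell in the comparison of 4 arrays. It read 9.48, 8.58 and 8.37 on Trip12 mut/mut replicates 1, 2 and 3, against 9.51 and 9.38 on the WT arrays. Replicates 2 and 3 were at 0.547-fold and 0.475-fold of the WT mean, below both WT arrays, and replicate 1 lay between the WT arrays. Over all 5 arrays the mutant mean of 8.81 ± 0.59 (SD, n = 3) stood against 9.45 ± 0.09 (SD, n = 2) in WT cells, a difference of -0.64 (SE 0.37, limma adjusted p = 0.748). On 4 arrays it was -0.97 (SE 0.11), or 1.96-fold lower, with a 95% interval of -1.27 to -0.67 (limma, adjusted p = 0.0422). The dimmer Lin28a probe set, at 6.61 in WT, lay in the same direction, at 0.773-fold on both replicates.

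Lin28b was dim throughout. It read 3.70, 3.70 and 3.55 on the mutant arrays, against 4.02 and 4.01 on the WT arrays, all below the median of 5.52. Here replicate 1 lay with the other mutant arrays, 0.31 below the WT mean. The difference of -0.36 (SE 0.07) did not pass over all genes (limma, adjusted p = 0.748). The values carry no detection call, so whether Lin28b transcript was present was not measured.

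Utf1 fell beside Lin28a. Its values were 10.93, 10.23 and 10.07 on the mutant arrays, against 10.92 and 10.98 on the WT arrays. It was at 0.607-fold and 0.544-fold of the WT mean on replicates 2 and 3, and replicate 1 lay between the WT arrays. The difference over 5 arrays was -0.54 (SE 0.29, limma adjusted p = 0.748), with means of 10.41 ± 0.46 (SD, n = 3) in mutant and 10.95 ± 0.04 (SD, n = 2) in WT cells. In the comparison of 4 arrays, with dim genes left out, it was -0.80 (SE 0.09), 1.74-fold lower (limma, adjusted p = 0.0422). Among the other Utf1 probe sets, the one at 6.67 in WT was at 0.746-fold and 0.561-fold on replicates 2 and 3. The dimmest, at 3.89, was at 1.07-fold and 0.925-fold.

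Dppa3 had the largest difference of the 10. It read 9.79, 7.67 and 7.76 on Trip12 mut/mut replicates 1, 2 and 3, against 9.82 and 9.82 on the WT arrays. Replicates 2 and 3 were at 0.226-fold and 0.240-fold of the WT mean, while replicate 1 was at 0.980-fold. The mean over 5 arrays was 8.41 ± 1.20 (SD, n = 3) in mutant and 9.82 ± 0.01 (SD, n = 2) in WT cells. That difference of -1.41 (SE 0.74) did not pass (limma, adjusted p = 0.748), and its 95% interval ran from -3.40 to 0.58. On 4 arrays Dppa3 fell by 2.10 on the log2 scale (SE 0.07), 4.30-fold, with a 95% interval of -2.30 to -1.90 (limma, adjusted p = 0.0243). Only 0.0495% of the 18193 genes had a lower difference on those arrays, against 0.583% for Lin28a and 0.929% for Utf1. A single probe set measured Dppa3, so no other probe set could be compared.

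Neither Dppa2 nor Dppa4, neighbours on chromosome 16 whose proteins act together, passed in either comparison. Dppa4 read 11.51, 11.24 and 11.12 on the mutant arrays, against 11.47 and 11.52 on the WT arrays. On replicates 2 and 3 it was at 0.836-fold and 0.770-fold of the WT mean, and replicate 1 lay between the WT arrays. The difference on 4 arrays was -0.32 (SE 0.08) and did not pass (limma, adjusted p = 0.0978). Over 5 arrays it was -0.21 (SE 0.13, limma adjusted p = 0.748).

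Dppa2, in contrast, read 11.84, 11.58 and 11.85 on the mutant arrays, against 11.86 and 11.84 on the WT arrays. Replicate 2 was the only array below both WT arrays, at 0.832-fold of the WT mean, and replicate 3, at 0.997-fold, lay between them. The difference of -0.09 (SE 0.10, 95% interval -0.37 to 0.18) did not pass (limma, adjusted p = 0.764) and was -0.0061 without replicate 2. The second Dppa2 probe set showed the same order, at 0.719-fold and 0.962-fold on replicates 2 and 3. Whether the differences of Dppa2 and Dppa4 differ was not tested.

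Dppa5a did not pass in either comparison, and its signal lay near the top of the scale. It read 14.18, 14.25 and 14.23 on Trip12 mut/mut replicates 1, 2 and 3, against 14.18 and 14.18 on the WT arrays. It was at 1.05-fold and 1.04-fold of the WT mean on replicates 2 and 3, above both WT arrays, and replicate 1 lay between them. The difference was 0.04 (SE 0.05, 95% interval -0.09 to 0.17) over 5 arrays (limma, adjusted p = 0.769), and 0.06 on 4 arrays (limma, adjusted p = 0.560). Signals this high can be compressed, so a small difference at this level is less certain than elsewhere.

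**Figure D2:**
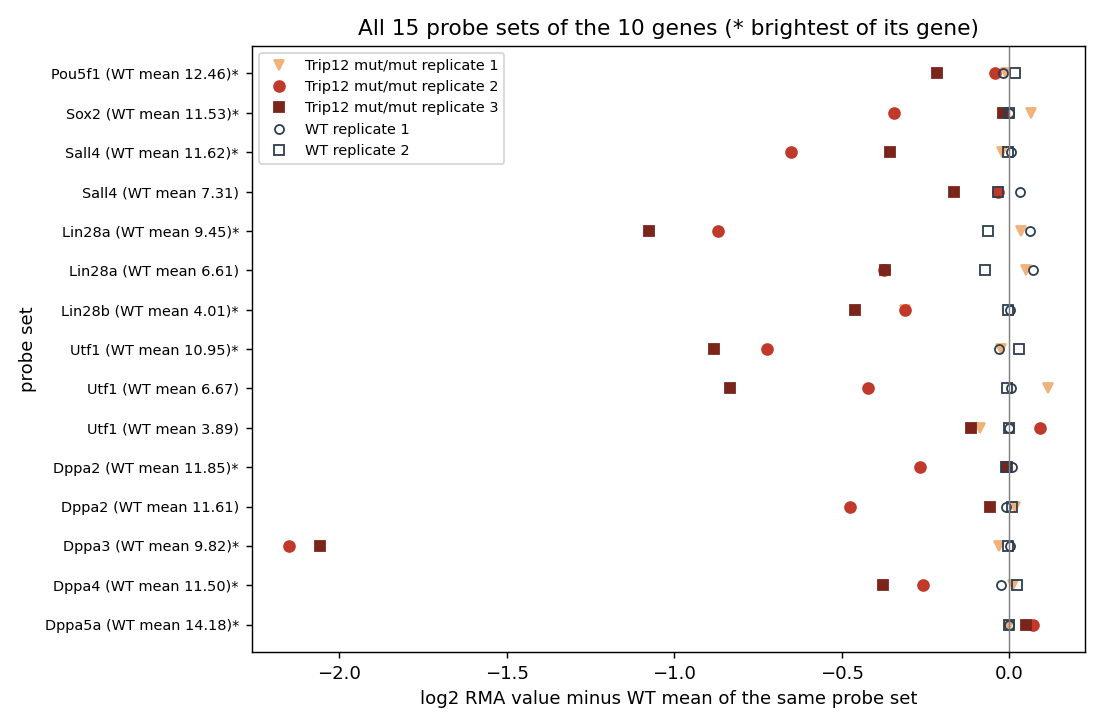
Log2 value minus the WT mean of the same probe set (horizontal axis) for all 15 probe sets of the 10 genes (vertical axis, asterisk for the one that stands for its gene); filled symbols are the Trip12 mut/mut arrays and open symbols the WT arrays. Both Lin28a probe sets and the 2 brighter Utf1 probe sets lie left of 0 on replicates 2 and 3, while replicate 1 stays near 0 except at Lin28b.

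Replicates 2 and 3 did not agree equally well for all genes. For Dppa3 they differed by 0.09, where 31.8% of genes had a smaller gap, and for Dppa5a by 0.02. The largest gaps were 0.33 for Sox2, 0.29 for Sall4 and 0.26 for Dppa2, where replicate 2 was the lower array. A smaller gap was found for 80.3%, 75.8% and 70.0% of genes. For Pou5f1, Lin28a, Lin28b, Utf1 and Dppa4, replicate 3 was the lower, by 0.17, 0.20, 0.15, 0.16 and 0.12. With replicate 1 left out, the 2 groups did not overlap for 8 of the 10 genes in the lower direction, where 17.5% of all genes did so, and for Dppa5a in the higher, where 26.7% did. Dppa2 overlapped. Among the 9 genes tested there, 7 were lower and 1 higher without overlap, against 22.1% and 35.2% of the genes tested.

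**Figure D3:**
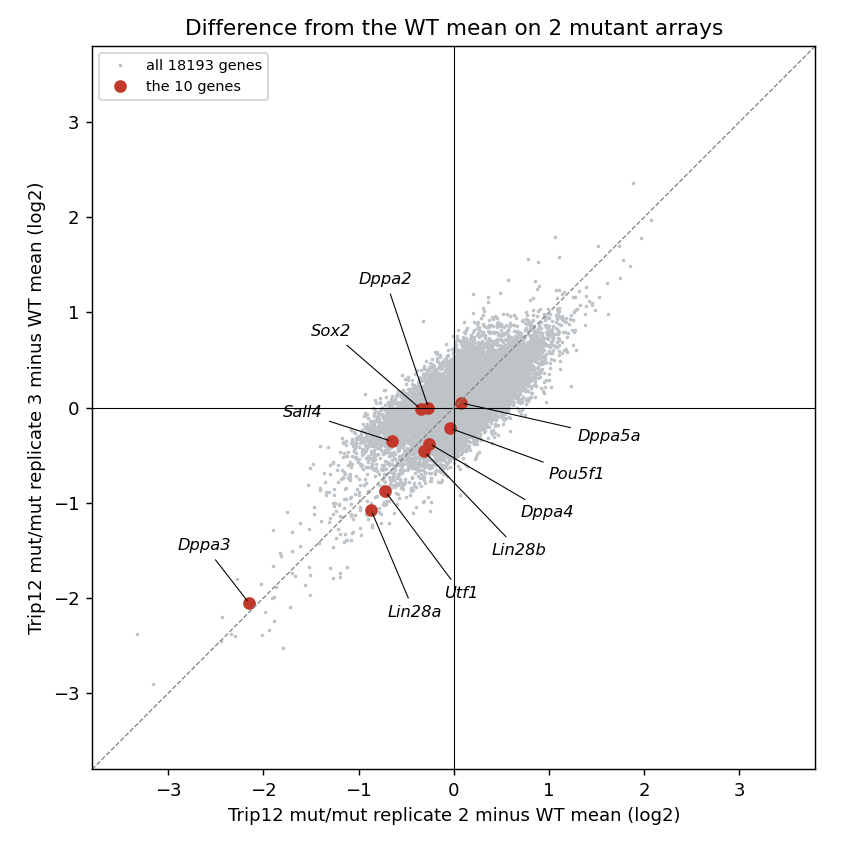
Difference from the WT mean (log2) on Trip12 mut/mut replicate 2 (horizontal axis) and replicate 3 (vertical axis) for all 18193 genes (grey) and the 10 genes (red); the dashed line marks equal values. Dppa3 lies far in the lower left at -2.15 and -2.06, Lin28a and Utf1 near the lower edge of the cloud, and Sox2 and Dppa2 are below 0 on replicate 2 and close to 0 on replicate 3.

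Defining markers of embryonic stem cells, and markers of other cell types, were read on the same arrays. Pou5f1, Sox2, Sall4, Lin28a, Utf1, Dppa2, Dppa3, Dppa4, Dppa5a, Nanog, Zfp42, Esrrb and Fgf4 lay above the median of 5.52 on each array of both groups, and Lin28b lay below it on each. Fibroblast markers, 28 measured, averaged 10.39, 10.85 and 10.84 on Trip12 mut/mut replicates 1, 2 and 3, against 10.41 and 10.42 on the WT arrays, and 0 of the 28 had a mean over the 5 arrays below the median. On 4 arrays, where 3.29% of all genes tested rose and 1.34% fell, 7 of the 28 rose and 1 fell. Timp3, an inhibitor of metalloproteinases, was among those that rose (1.28), and Cnn1, a calponin, fell (-1.10). Cnn1 read 5.54 and 5.51 on replicates 2 and 3, at about the median of 5.52, against 6.65 and 6.59 on the WT arrays. It passed the filter on dim genes through its WT arrays, so its fall is a description only. The fibroblast mean was thus higher on the same 2 arrays on which Dppa3, Lin28a and Utf1 were lower, and its part in those results was not tested. In such bulk RNA, fewer cells of a type and less RNA per cell cannot be told apart. Of the 10 genes, 9 lay below the WT mean on both of those arrays, where 28.8% of all genes did. The 1 that lay above it on both was Dppa5a, where 39.4% of all genes did. The other pluripotency genes averaged 10.06, 10.01 and 10.20 on the mutant arrays, against 10.06 and 10.08 on the WT arrays. How these values relate to the fibroblast mean was not tested.

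Of the lineage markers, those whose mean over the 5 arrays lay below the median were 4 of 8 for primitive endoderm, 3 of 8 for trophoblast, 2 of 6 for neuroectoderm and 4 of 5 for mesoderm. The mean of 8 primitive endoderm genes was 6.16, 6.19 and 6.26 on the mutant arrays, against 6.21 and 6.24 on the WT arrays. On 4 arrays 0 of the 4 tested passed, with 3 differences above 0 and 0 below. Dab2 was at 0.57 (limma, adjusted p = 0.0648) and Gata6 at 0.23 (limma, adjusted p = 0.152). The 8 trophoblast genes averaged 6.23, 6.32 and 6.20 on the mutant arrays, against 6.30 and 6.30 on the WT arrays. Of the 5 tested, 3 had differences below 0 and 2 above. Krt7, a keratin, fell (-0.78, limma adjusted p = 0.0482), while Tfap2c was at 0.33 and did not pass (limma, adjusted p = 0.470). Of 6 neuroectoderm genes, averaging 6.24, 6.28 and 6.24 on the mutant arrays and 6.23 and 6.21 on the WT arrays, Zic1, a zinc finger factor, rose (1.23, limma adjusted p = 0.042). Nes, an intermediate filament gene of neural progenitors (-0.53, limma adjusted p = 0.0553), and Pax6, a paired box factor (-0.41, limma adjusted p = 0.0643), had differences of the opposite sign and did not pass. The 5 mesoderm genes averaged 4.99, 4.88 and 4.82 on the mutant arrays, against 5.14 and 5.02 on the WT arrays, and the 1 tested did not pass.

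The genes around the 10 were read from lists chosen for their roles. Calls below are those of the comparison of 4 arrays, where 1.34% of all genes tested fell and 3.29% rose. Over all 5 arrays 0 members of any list passed. Among other pluripotency factors and targets of Pou5f1 and Sox2, 1 of 19 fell and 1 rose, with a median of -0.03, against 0.05 over all genes tested. Lefty1, an inhibitor of Nodal, fell by 0.94 (SE 0.08, limma adjusted p = 0.042), and Tcl1, a cofactor of the kinase Akt, rose by 0.55 (SE 0.07, limma adjusted p = 0.0467). Esrrb, an orphan nuclear receptor, had a difference of 0.57 and just missed the threshold (limma, adjusted p = 0.0501). Klf5, a Krüppel-like factor, had 0.40 (limma, adjusted p = 0.0876).

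Of 12 genes that process or turn over let-7, 0 passed, with a median of -0.17. Trim71, a ubiquitin ligase of early embryos and itself a let-7 target, came closest, at -0.43 (limma, adjusted p = 0.053). It was followed by Tut7, a uridyltransferase that tags the let-7 precursor (0.34, limma adjusted p = 0.0656), by Drosha, the nuclear microRNA nuclease (-0.24), and by Msi1, an RNA-binding protein (-0.65). Among textbook let-7 targets, 2 of 12 fell and 1 rose, with a median of -0.10, against 0.05 over all genes tested. Mycn, a Myc family factor, read 11.40, 10.75 and 10.57 on the mutant arrays, against 11.42 and 11.40 on the WT arrays, and fell by 0.75 (SE 0.09, limma adjusted p = 0.0467). Igf2bp3, an RNA-binding protein, fell by 0.86 (SE 0.12, limma adjusted p = 0.0495), and its relative Igf2bp1 had -0.75 and did not pass (limma, adjusted p = 0.0514). The cell cycle gene Ccnd2 rose by 0.86 (SE 0.11, limma adjusted p = 0.0476). The targets thus did not all move one way, with 8 below and 4 above 0.

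**Figure D4:**
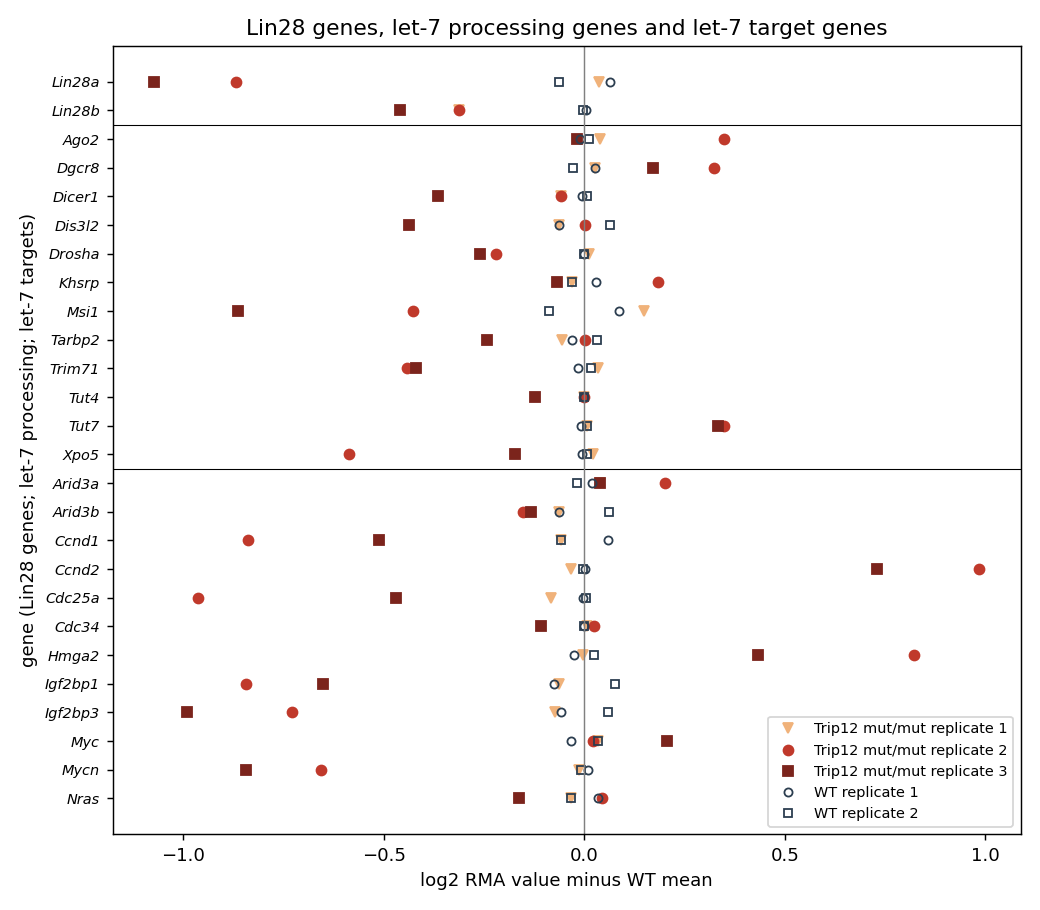
Log2 value minus the WT mean (horizontal axis) of the Lin28 genes, 12 let-7 processing genes and 12 let-7 target genes (vertical axis, from top to bottom) on each array; filled symbols are Trip12 mut/mut and open symbols WT. Lin28a, Mycn and Igf2bp3 lie left of 0 on replicates 2 and 3, and Ccnd2 lies right of it.

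Relatives of the core factors were also read. Of the other POU domain genes 9 were measured, 7 of them below the median, and of the 2 tested Pou3f1, a factor of the early epiblast, fell by 1.24 (SE 0.14, limma adjusted p = 0.0422). Of 10 Sox genes tested 0 passed, with Sox4 at 0.43 (limma, adjusted p = 0.0742), Sox9 at 0.28, Sox13 at -0.53 and Sox3, a close relative of Sox2, at -0.50. In the list of other Sall genes and NuRD subunits, 1 of 15 fell and 1 rose. These were Sall2, a Sall4 relative (-0.66, SE 0.09, limma adjusted p = 0.0479), and Mbd2, a reader of methylated DNA (0.77, SE 0.09, limma adjusted p = 0.0426). Mta1 (-0.32) and Rbbp7 (-0.25), both NuRD subunits, did not pass.

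Lists linked to Utf1 and to the Dppa genes had 0 calls. Of 9 genes of Polycomb repressive complex 2 and mRNA decapping, Jarid2 (-0.41, limma adjusted p = 0.0931) and Ezh2, the histone methyltransferase (-0.36), came closest. Only 5 of 10 genes of the 2-cell stage, a state that Dppa2 and Dppa4 promote, were measured. Tcstv3 was at 0.22, Duxf3 at 0.09 and Zfp352 at -0.07. The mean of the 5 was 7.87, 8.05 and 7.81 on the mutant arrays, against 7.91 and 7.84 on the WT arrays. Since such genes lie in families of near-identical copies, their probe sets may be shared. Among 4 tested genes of DNA methylation maintenance and oxidation, Uhrf1, the maintenance factor that Dppa3 binds, was at -0.32 (limma, adjusted p = 0.0735) and Tet1, a dioxygenase, at -0.67 (limma, adjusted p = 0.0938). Of the KH domain relatives of Dppa5a and the maternal complex 3 were tested. Ooep (0.63, limma adjusted p = 0.0509) and Khdc3 (0.53, limma adjusted p = 0.055) were above WT on replicates 2 and 3.

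**Figure D5:**
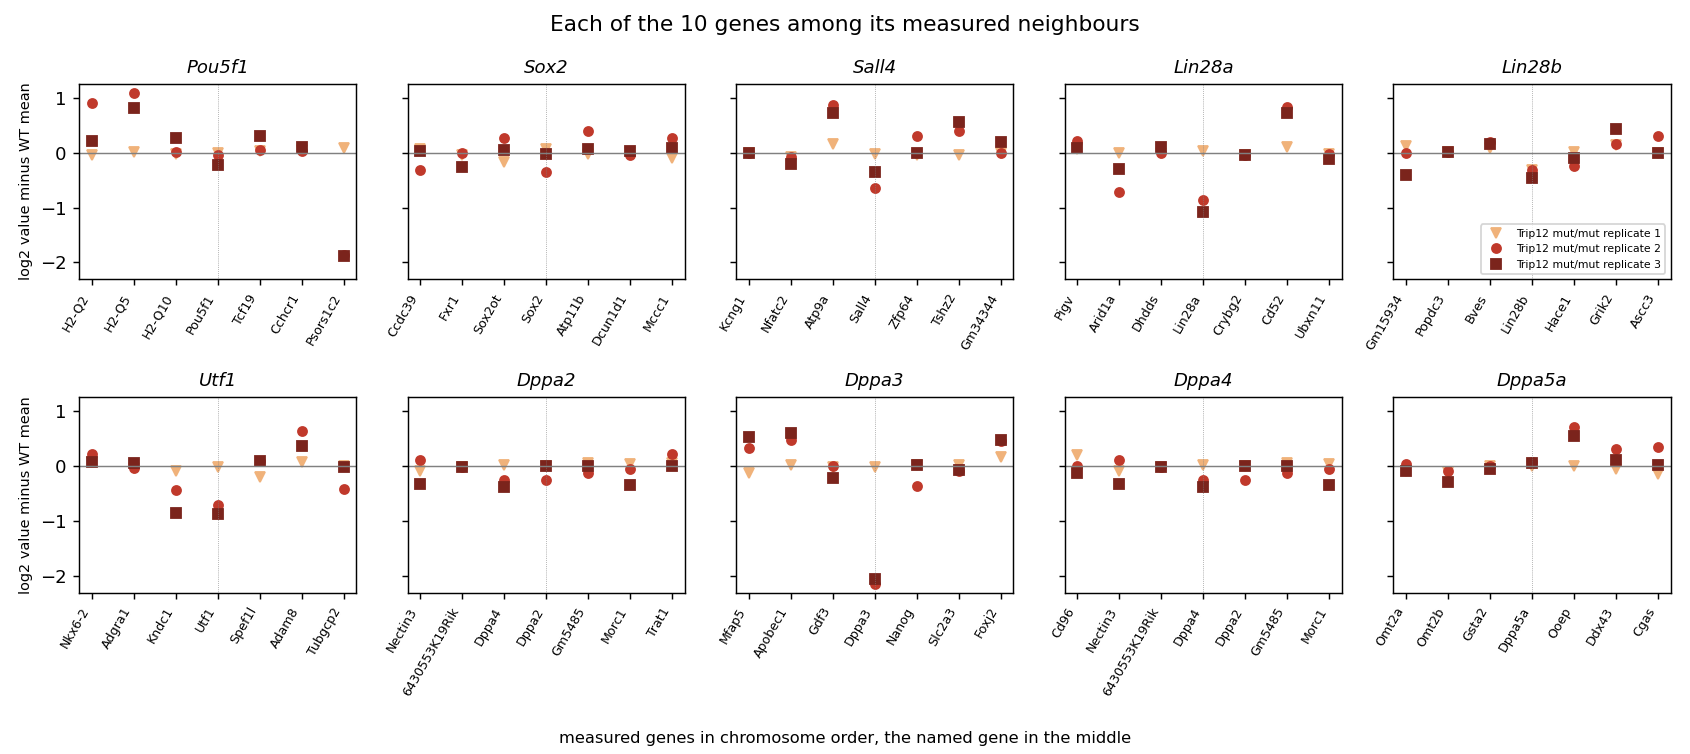
Log2 value minus the WT mean (vertical axis) on the 3 Trip12 mut/mut arrays for each of the 10 genes and the 3 measured genes on each side, in chromosome order (horizontal axis). Dppa3 lies near -2 on replicates 2 and 3 between Gdf3 and Nanog, whose mean differences on these arrays were -0.11 and -0.17.

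Of the 6 measured neighbours of Dppa3, all tested in the comparison of 4 arrays, 0 passed. Dppa3 lies on chromosome 6 in a cluster of genes active in pluripotent cells. On its one side Gdf3, a TGF-beta family ligand, was at -0.11 (limma, adjusted p = 0.501), and on the other Nanog was at -0.17 (limma, adjusted p = 0.492) on 4 arrays. Slc2a3, a glucose transporter beyond Nanog, was at -0.08, and Apobec1, beyond Gdf3, at 0.53 (limma, adjusted p = 0.0525). Beside Lin28a on chromosome 4, 1 of 6 neighbours passed, Cd52, a surface glycoprotein of leukocytes, which rose (0.77, limma adjusted p = 0.042). Of the Utf1 neighbours on chromosome 7, 4 were tested and 0 passed, with Adam8, a metalloproteinase gene, at 0.49 (limma, adjusted p = 0.0912) and Kndc1 at -0.65 (limma, adjusted p = 0.128). Beside Pou5f1 on chromosome 17, Psors1c2 read 7.16, 5.20 and 5.19 on the mutant arrays, against 6.98 and 7.17 on the WT arrays. It reached the median of 5.52 only on the arrays where it was high, so no test of it is given. H2-Q5, of a family of near-identical class I genes whose probe sets may be shared, rose there by 0.96 (limma, adjusted p = 0.0476), and Atp9a, beside Sall4 on chromosome 2, rose by 0.80 (limma, adjusted p = 0.0447).

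Genes with the most similar profiles were found by the smallest distance between values over the 5 arrays, after subtraction of each gene's mean, among 11559 genes whose mean reached the median (11560 for Lin28b, which is below it). These are descriptions that rest on the same 5 arrays. For Dppa3 they were Esrp1, a splicing regulator of epithelial cells (distance 0.0895), Lef1, a mediator of Wnt signals (0.209), and the neurofilament gene Nefl (0.224). For Lin28a they were Jade2 (0.0508), Mapk12 (0.075) and Myrf (0.112), and for Utf1 Mycn (0.0781), the cochaperone gene Fkbp4 (0.0788) and the laminin gene Lama3 (0.0981). Mycn, nearest to Utf1, is also the let-7 target described above. Sall4 was closest to Phc1, a Polycomb gene (0.028), Sox2 to Bub3, a spindle checkpoint gene (0.0234), Dppa4 to Mta1 (0.0119) and Pou5f1 to Pigx (0.00872). Small differences find close profiles readily, so these distances are not comparable between genes of different range.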

How the data were processed

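RNA of 3 Trip12 mut/mut and 2 WT samples was measured on 1 array each. The deposited values are log2 values per probe set, made by the authors with RMA (background correction, normalisation between arrays, summary over probes) per the submitters' processing notes, with no version stated. Array medians ran from 5.51 to 5.55, so a change common to all transcripts is hidden. The small number of arrays limits precision.

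Of 45101 probe sets, 64 controls were left out. A single symbol was given for 34945, and 34741 of these were updated by gene number with a table of assembly GRCm38.p6, used for names and gene order. The test, two-sided, was that of limma 3.58.1 (lmFit and eBayes under R 4.3.3) with genotype alone in the model and Benjamini-Hochberg adjustment over all genes. No set test was made. The procedure was tested on simulated data. Figures were drawn with matplotlib 3.10.9.

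Members and lists were chosen with earlier results of these data known. Named were all 10 genes with their probe sets, up to 4 genes per list with the smallest p on 4 arrays, the 3 measured neighbours on each side and the 3 nearest profiles. Of each fibroblast and lineage list, fewer were named. Alternatives changed the array scaling, the filter on dim genes, the variance model, the weighting of arrays, the replicate block, the summary of probe sets and the arrays included.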

Additional observations from a re-analysis of the deposited data

How the results depend on the processing

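Over all 10 genes and the alternatives tried, 144 differences kept the sign and the side of the threshold that they had over 5 arrays, 3 newly passed and 1 turned. Part of this agreement was fixed in advance. The filter on dim genes alone and the variance model leave each difference over 5 arrays unchanged and can move only its p-value. The summary of probe sets cannot change genes with a single probe set. The replicate block repeats the difference without Trip12 mut/mut replicate 3. The count of genes past the threshold ranged from 0 to 539, and of the 10 genes from 0 to 3 that fell, with 0 that rose under each setting. The upper ends, 539 and 3, came only without Trip12 mut/mut replicate 1 and with dim probe sets removed, where Dppa3 (-2.10), Lin28a (-0.97) and Utf1 (-0.80) passed. Without that array alone the adjusted p was 0.0785 for Dppa3, 0.0815 for Lin28a and 0.0785 for Utf1 (limma). The turned one was Sox2, at 0.023 without Trip12 mut/mut replicate 2 against -0.10 over 5 arrays, and it ranged from -0.18 to 0.023 over the arrays left out. The cause was not tested. With each array left out in turn, Dppa3 lay between -2.10 and -1.04, Lin28a between -0.97 and -0.42, Utf1 between -0.80 and -0.37, and Sall4 between -0.50 and -0.19. Under quantile normalisation or centring, applied to values that RMA had already normalised between arrays, no gene of the 10 changed sign.

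The labels do not say that shared replicate numbers pair the arrays. The deviations of same-numbered arrays from their group means correlated at -0.043 and -0.077 across probe sets. With only 2 WT arrays, the differently numbered pairs of those mutant arrays give the same values with the sign turned, 0.043 and 0.077. This check therefore cannot show whether the arrays are paired. With the replicate number as a block, 0 genes passed, and the difference of Dppa3 was -1.09. Trip12 mut/mut replicate 3 has no WT array of its number, so it does not inform the difference in that fit. With that array left out instead, the difference of Dppa3 was likewise -1.09.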
